A study of Mus musculus with 4 samples.

Results

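The immediate early genes of the mouse lens were read from a table of normalized expression values, as the rows that map to *Fos*, *Fosb*, *Jun*, *Junb*, *Jund*, *Egr1*, *Atf3*, *Ier2*, *Klf4* and *Klf6*. Of these 10 genes, 9 were found among the 14924 genes of the table, and *Fosb* was not analysed here. The genes were chosen by name, though with earlier results of these data known, to ask whether a sign of tissue handling differed between pools of lenses. The RNA came from whole lenses at postnatal day 30 of S100A4-/- mice, a null line kept on a C57BL/6J background, and of their wild type (WT) littermates. Both groups were of the same age and no treatment is labelled. Each genotype gave 2 libraries, and each library was made from a pool of 6 to 12 lenses, described as a biological replicate. The sex of the animals in each pool is not given in the sources used here.

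Immediate early genes are transcribed within minutes of a stimulus, without new protein synthesis, when kinases of the MAPK cascades activate factors that are already bound near their start sites. Growth factors, calcium entry, wounding and the dissection of a tissue are all known triggers. Fos and Jun proteins pair to form AP-1, a dimeric transcription factor, while *Egr1*, *Klf4* and *Klf6* encode zinc-finger factors and *Atf3* a stress-responsive relative of AP-1. Their transcripts decay rapidly, so their levels in a tissue depend on the minutes before its RNA is stabilized. In the lens, fiber cells lose their nuclei as they mature, and new transcription takes place in the epithelium and the outer fibers.

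RefSeq promoter windows of the build GRCm38.p6, from 250 bases before to 50 bases after a start site, were matched for 8 of the 10 genes. For *Fos*, *Jun* and *Atf3* the 100 bases before the start are shown 5′ to 3′ on the strand of the gene, because their proteins bind one another and the CRE, the cAMP response element, is a site that such dimers recognize. Capitals mark the matched letters described after the sequences.
Fos, chr12:85473790-85473889, plus strand: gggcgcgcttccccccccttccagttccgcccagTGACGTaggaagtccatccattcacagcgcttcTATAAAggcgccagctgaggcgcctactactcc
Jun, chr4:95052223-95052322, minus strand: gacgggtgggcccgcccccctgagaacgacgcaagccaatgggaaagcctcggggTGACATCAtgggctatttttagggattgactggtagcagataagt
Atf3, chr1:191183334-191183433, minus strand: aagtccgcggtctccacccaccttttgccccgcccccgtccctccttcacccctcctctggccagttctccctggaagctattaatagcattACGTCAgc

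The full CRE, TGACGTCA, was found in 0 of the 8 windows and in 1.79% of all 32851 windows, with both strands searched. Its first 6 letters, TGACGT, stood 66 bases before the start of *Fos* and, on the other strand, 8 bases before the start of *Atf3*, against 7.51% of all windows. With any base at the fifth place, TGACNTCA was found 45 bases before the start of *Jun* and 119 bases before that of *Klf6*, against 8.83% of all windows. The full CRE is one case of both of these looser patterns, so the searches overlap. A TATA box, TATAAA, began 33 bases before the start of *Fos* and at the start itself in *Junb*, where 13.6% of all windows held one. The TRE of AP-1, TGAGTCA, and the CArG box of the serum response element were in none of the 8 windows, and in 5.20% and 1.63% of all windows. The EGR site, GCGNGGGCG, was in the windows of *Fosb* and *Klf4* and in 5.55% of all windows. The RefSeq starts of *Fos* and *Jun* are those of GENCODE, whereas that of *Atf3* lies 34706 bases inside the longer GENCODE gene and those of *Jund* and *Junb* lie 1210 and 30 bases upstream of the GENCODE starts. Those of *Klf4* and *Klf6* lie 9 bases upstream and 7 bases downstream. A match is a run of letters in this window and no evidence of binding.

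The values are the reads of a gene over a size factor for each library. A read had a value of 0.856 and 1.01 in the S100A4-/- libraries, hereafter pools 1 and 2, and 1.04 and 1.09 in the WT pools. In total 81602367 and 74108017 reads lay on genes in the S100A4-/- pools, and 70253985 and 68038158 in the WT pools. The floor of 3 reads, below which a gene was not taken as detected, corresponds to values of 2.57 and 3.04 in S100A4-/- and of 3.13 and 3.28 in WT. All 9 genes lay above the floor in all 4 libraries, and all 9 passed the filter on low values. *S100a4*, the deleted gene, had values of 14.6 and 18.2 in S100A4-/- and of 14420 and 14385 in WT, as labelled. Lens fiber identity was present in each library, with *Bfsp2*, a beaded filament protein of fiber cells, at 325224 and 339432 in S100A4-/- and at 338570 and 338244 in WT. *Foxe3*, a transcription factor of the lens epithelium, was at 4810 and 5136 in S100A4-/- and at 5237 and 5104 in WT.

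For the comparison of the genotypes, limma was fitted to log2(value + 1) of 14780 genes, and a gene passed with at least a 2-fold change and a Benjamini-Hochberg adjusted p of at most 0.05. None of the 9 immediate early genes passed (0 of 9 by limma, and also 0 by edgeR and 0 by DESeq2 on recovered reads), while 3.72% of all genes tested did, 3.65% higher and 0.0744% lower in S100A4-/-. With no fold threshold 0 of the 9 genes passed by any of the 3 tools either, against 6.96% of all genes. At an unadjusted p under 0.05, limma listed 4 of the 9 (*Fos*, *Jun*, *Egr1* and *Klf6*), edgeR 4 and DESeq2 1, against 17.7% of all genes by limma, 17.7% by edgeR and 11.0% by DESeq2. The shares of all genes in this paragraph are the background for the lists after the 9 genes. They apply to counts past the threshold, with no fold threshold and at an unadjusted p alike. The median log2 fold change of the 9 genes, S100A4-/- against WT, was 0.17, compared with -0.01 for all genes tested. This median was 0.045 without the second WT pool, 0.099 without the first, 0.0047 under quantile normalization and 0.086 over the 7 genes with a mean of at least 50. Fitted log2 fold changes were above 0 for 7 genes and below 0 for 2. With 2 pools per genotype these tests set the genotypes against the spread between pools only. In limma (eBayes with trend) the spread of a gene was moderated towards that of other genes of like mean. Its standard errors and intervals are therefore not those of the pools of that gene alone. In whole-lens RNA, fewer cells of a type and less RNA per cell cannot be told apart.

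**Figure D1:**
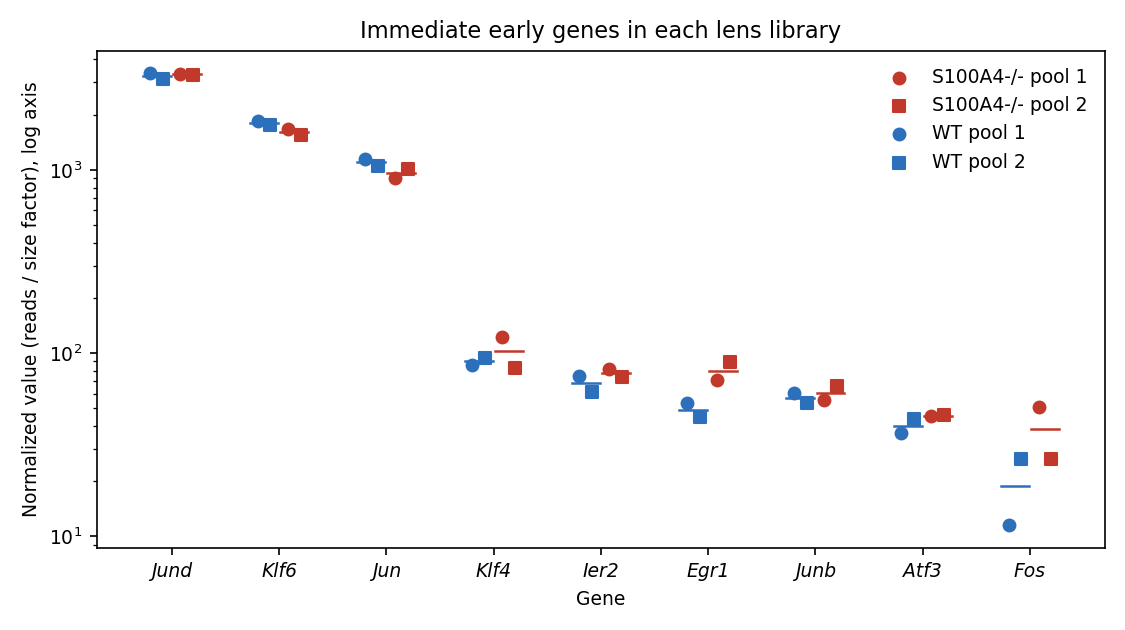
Normalized value (reads divided by the size factor, log axis) of each immediate early gene in each library, with genes in order of mean value, pool 1 as circles, pool 2 as squares and group means as bars. Jund, Klf6 and Jun sat between 907 and 3358, and the other 6 genes between 11.5 and 122, with the pools of a genotype furthest apart for Fos.

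*Fos* (ENSMUSG00000021250; GRCm38 chromosome 12, 85473890 to 85477273, plus strand) encodes the founding Fos subunit of AP-1. Its values were 50.5 and 26.4 in the S100A4-/- pools and 11.5 and 26.3 in the WT pools, from 59, 26, 11 and 24 reads. The second pools of the genotypes were thus nearly equal in normalized value, by less than the value of 1 read, and the first pools were the highest and the lowest of the 4 libraries. The group means were 38.4 ± 17.1 in S100A4-/- and 18.9 ± 10.5 in WT (SD, n = 2 each). The log2 fold change was 1.02 with a standard error of 0.43, a 2.03-fold difference with a 95% interval from 1.11- to 3.74-fold, and limma's Benjamini-Hochberg adjusted p was 0.183. It did not pass, although its fitted change was just over 2-fold. Without the second WT pool its log2 fold change was 1.59 with an adjusted p of 0.0249 by limma, so that whether it passed depended on that library. Without the first WT pool it was 0.46, and without the first and the second S100A4-/- pool 0.57 and 1.48. Over 14 alternatives its adjusted p ran from 0.0249 to 0.739.

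*Jund* (ENSMUSG00000071076; chromosome 8, 70698949 to 70700616, plus strand), the Jun subunit that is generally the least inducible, had 3336 and 3294 in S100A4-/- and 3358 and 3123 in WT. The groups overlapped, at 3315 ± 30.1 and 3240 ± 166 (SD, n = 2 each). The fitted log2 fold change was 0.03 with a 95% interval from -0.08 to 0.14, and the adjusted p was 0.821 (limma). Of the reads on the 9 genes, 51.5% lay on *Jund*.

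*Jun* (ENSMUSG00000052684; chromosome 4, 95049034 to 95052222, minus strand), the AP-1 subunit that is phosphorylated by the JNK kinases, had 907 and 1009 in S100A4-/- and 1140 and 1053 in WT. Both S100A4-/- pools lay below both WT pools, at 958 ± 72.5 against 1097 ± 61.5 (SD, n = 2 each). The log2 fold change was -0.20 (standard error 0.08, 95% interval -0.35 to -0.04), and the adjusted p of 0.135 by limma was above the threshold.

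*Junb* (ENSMUSG00000052837; chromosome 8, 84974484 to 84978718, minus strand), a Jun subunit that can restrain Jun activity, had 55.7 and 65.9 in S100A4-/- and 60.6 and 53.7 in WT. These values interleaved, at 60.8 ± 7.22 and 57.1 ± 4.89 (SD, n = 2 each). Between genotypes the log2 fold change was 0.09 with a 95% interval from -0.45 to 0.62 (limma, adjusted p = 0.914).

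*Atf3* (ENSMUSG00000026628; chromosome 1, 191170296 to 191218039, minus strand), whose product is a repressor induced by many kinds of cell stress, had 45.4 and 45.6 in S100A4-/- and 36.5 and 43.8 in WT. The S100A4-/- pools lay above the WT pools, at 45.5 ± 0.156 against 40.2 ± 5.13 (SD, n = 2 each), on 53, 45, 35 and 40 reads. The log2 fold change was 0.18 with a 95% interval from -0.44 to 0.81 (limma, adjusted p = 0.830), and it was 0.054 without the first and 0.31 without the second WT pool. The difference between the group means was smaller than that between the WT pools.

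*Egr1* (ENSMUSG00000038418; chromosome 18, 34859823 to 34864984, plus strand), a zinc-finger factor downstream of the ERK kinases, had 71.1 and 89.2 in S100A4-/- and 53.3 and 44.9 in WT. Both S100A4-/- pools lay above both WT pools, on 83 and 88 reads against 51 and 41. Group means were 80.1 ± 12.8 and 49.1 ± 5.91 (SD, n = 2 each). Its log2 fold change of 0.69 (standard error 0.26, 95% interval 0.17 to 1.22) was 1.62-fold, and limma's adjusted p was 0.112. Neither part of the threshold was met, and the direction held under all 15 alternatives that were run.

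*Klf4* (ENSMUSG00000003032; chromosome 4, 55527143 to 55532466, minus strand), a zinc-finger factor of epithelia and of stem cells, had 122 and 83.1 in S100A4-/- and 85.6 and 94.2 in WT. The first S100A4-/- pool stood above the other 3 libraries, and the second stood below all of them (103 ± 27.8 and 89.9 ± 6.04, SD, n = 2 each). On the log2 scale the fold change was 0.17 with a 95% interval from -0.27 to 0.61 (limma, adjusted p = 0.763), and it was -0.11 without the first S100A4-/- pool.

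*Klf6* (ENSMUSG00000000078; chromosome 13, 5861482 to 5870394, plus strand), a widely expressed zinc-finger factor induced by injury, had 1667 and 1545 in S100A4-/- and 1852 and 1757 in WT. Both S100A4-/- pools lay below the WT pools, at 1606 ± 86.8 against 1805 ± 67.2 (SD, n = 2 each). The log2 fold change was -0.17 (standard error 0.06, 95% interval -0.30 to -0.04), and the adjusted p of 0.122 by limma did not pass.

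*Ier2* (ENSMUSG00000053560; chromosome 8, 84661331 to 84662852, minus strand), which encodes a nuclear protein of the early response, had 81.4 and 74.0 in S100A4-/- and 75.2 and 61.3 in WT. The groups overlapped, at 77.7 ± 5.21 and 68.2 ± 9.80 (SD, n = 2 each), and the log2 fold change was 0.19 with a 95% interval from -0.29 to 0.67 (limma, adjusted p = 0.754).

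**Figure D2:**
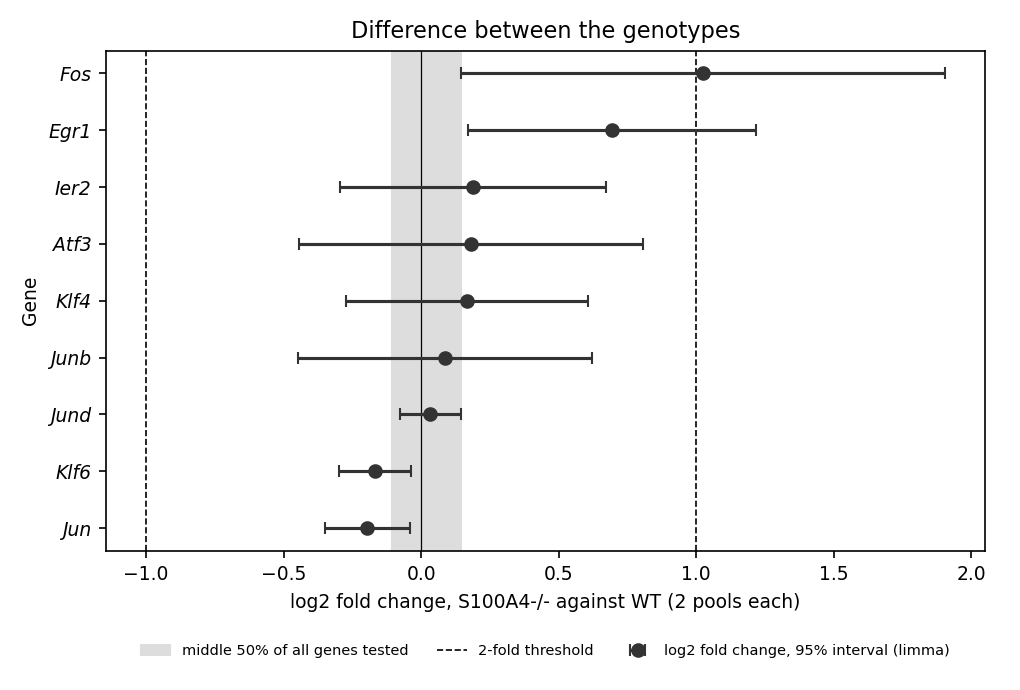
Log2 fold change of each immediate early gene, S100A4-/- against WT (n = 2 pools each), with the 95% interval of limma as bars, the 2-fold threshold as dashed lines and the middle of all genes tested (quartiles -0.11 to 0.15) as a grey band. Fos at 1.02 and Egr1 at 0.69 stood highest with intervals above 0, and Klf6 at -0.17 and Jun at -0.20 stood lowest with intervals below 0. For Fos, Jun and Klf6 this depended on limma's trend: without it their unadjusted p was 0.155, 0.126 and 0.118, and that of Egr1 was 0.0201.

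The libraries of the genotypes did not overlap for 5 of the 9 genes, with S100A4-/- higher for *Fos*, *Atf3* and *Egr1* and lower for *Jun* and *Klf6*. Among all genes tested 46.9% did not overlap, 23.7% with S100A4-/- higher and 23.2% with S100A4-/- lower, so that a share of this size was near the background. The 6 scarce genes were all fitted higher in S100A4-/-, from 0.09 for *Junb* to 1.02 for *Fos* on the log2 scale. *Junb*, *Atf3* and *Klf4* reversed under some alternatives. Of the 3 abundant genes *Jun* and *Klf6* were fitted lower, and *Jund* was at 0.03. Summed over *Jund*, *Klf6*, *Jun* and the other 6 genes, the values were 6337 and 6232 in S100A4-/- and 6673 and 6257 in WT, a ratio of the group sums of 0.972. Without *Jund*, *Klf6* and *Jun* the sums were 426 and 384 in S100A4-/- and 323 and 324 in WT. The median log2 level of the 9 genes was 6.36 and 6.39 in S100A4-/- and 6.25 and 5.96 in WT.

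Whether pools of the same genotype differed was asked with the ratio of pool 1 to pool 2 and its exact 95% interval (Clopper-Pearson on the recovered reads), which covers counting error only. In S100A4-/- the interval left out 1 for 4 of the 9 genes, *Fos*, *Jun*, *Klf4* and *Klf6*, against 24.5% of all genes tested. In WT it left out 1 for 2 of the 9, *Fos* and *Jund*, against 19.3% of all genes. The median size of the log2 gap between the pools was 0.15 in S100A4-/- and 0.17 in WT for the 9 genes, and 0.13 and 0.12 for all genes tested.

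*Fos* differed most between pools of 1 genotype. The first S100A4-/- pool had 1.92 times the value of the second (95% interval 1.19 to 3.17), whereas the first WT pool had 0.437 times that of the second (0.193 to 0.927). The pools thus lay apart in both genotypes, by log2 gaps of 0.91 and -1.13 that were of the size of the difference between genotypes. Pool numbers do not pair the libraries across genotypes, so the signs of these gaps cannot be compared between them. For *Klf4* the ratio was 1.47 (1.12 to 1.96) in S100A4-/- and 0.909 (0.664 to 1.25) in WT. *Jun*, in contrast to *Fos*, was lower in the first S100A4-/- pool, with a ratio of 0.898 (0.823 to 0.981), and 1.08 (0.992 to 1.18) in WT.

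*Klf6* had ratios of 1.08 (1.01 to 1.16) in S100A4-/- and 1.05 (0.985 to 1.13) in WT, and *Jund* had 1.01 (0.967 to 1.06) and 1.08 (1.02 to 1.13). These gaps were small, and the many reads on both genes made their intervals narrow. *Egr1* had 0.797 (0.583 to 1.09) in S100A4-/- and 1.19 (0.771 to 1.84) in WT, so its pools did not differ beyond counting error. The intervals of *Junb*, *Atf3* and *Ier2* held 1 in both genotypes. Pool 1 had the higher value for 5 of the 9 genes in S100A4-/- and for 6 in WT, and no pool stood above its partner for all of them. For 6 of the 9 genes the log2 gap between pools of at least 1 genotype was larger than the log2 fold change between genotypes, against 65.3% of all genes tested. The exceptions were *Jun*, *Egr1* and *Klf6*.

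**Figure D3:**
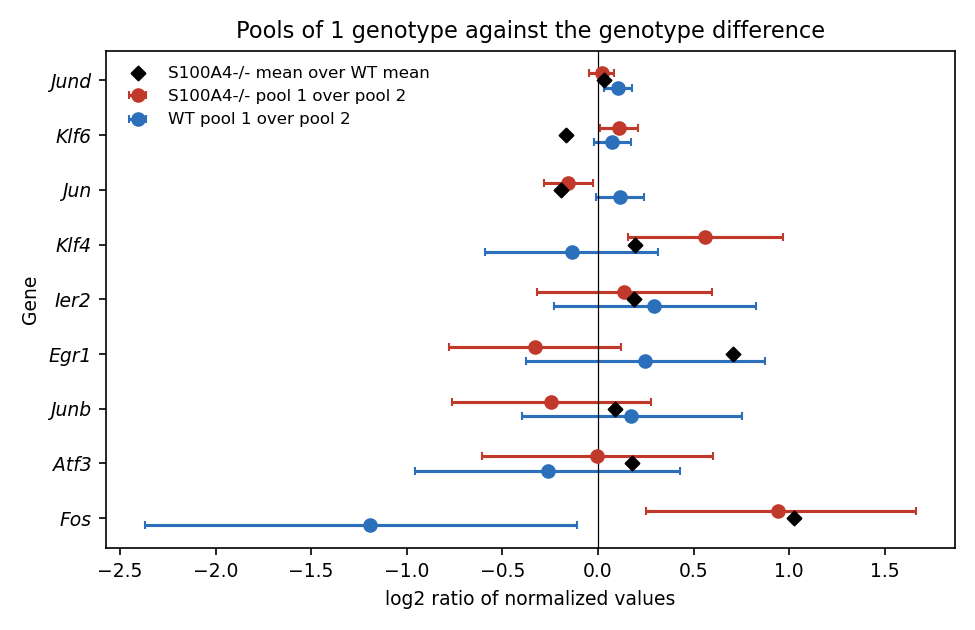
Log2 ratio of pool 1 to pool 2 within S100A4-/- (red) and within WT (blue), with exact 95% intervals of counting error, and the log2 ratio of the genotype means as diamonds, for each immediate early gene in order of mean value. The Fos pools lay apart in both genotypes, and the diamonds of Egr1, Klf6 and Jun lay further from 0 than either of their pool ratios.

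Levels of different genes were compared per kb of exonic sequence, as the mean over the 4 libraries. *Jund* was highest at 1965 per kb, and above 97.0% of all genes. *Klf6* followed at 388, between 352 and 422 over the libraries, and *Jun* at 322, between 284 and 358. Their ranges overlapped, with *Klf6* above *Jun* in each of the 4 libraries. Then came *Ier2* at 47.9 per kb and *Klf4* at 31.6, whose ranges of 40.3 to 53.5 and 27.3 to 40.2 only just stayed apart. *Junb* at 25.6 per kb was not separated from *Klf4*, and *Atf3* at 19.9 was below *Junb* in all libraries. *Egr1* at 14.4 and *Fos* at 12.2 had the lowest means, with ranges of 10.01 to 19.9 and 4.88 to 21.5. *Atf3*, with a range of 17.0 to 21.2, lay above *Egr1* in each of the 4 libraries, while *Fos* was not separated from either of them. The mean levels of *Egr1* and *Fos* per kb were above those of 22.6% and 20.4% of all genes. These last genes are classically among the most inducible of the 9.

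Other genes of the immediate early response were read from the same fit. Of 23 further transcription factors, 17 were tested and 0 passed by limma, edgeR or DESeq2, with 3 (limma), 3 (edgeR) and 1 (DESeq2) at an unadjusted p under 0.05. By limma this was 17.6% of the list and 17.7% of all genes. Their median log2 fold change was 0.07. The abundant members were *Cebpb*, a factor of the acute phase response, and *Bhlhe40*, a repressor of the circadian system, with log2 fold changes of -0.01 and -0.05. *Cebpd*, a relative of *Cebpb*, had the furthest fitted change, with values of 22.3 and 31.4 in S100A4-/- and 10.4 and 14.2 in WT. Its fold change was 1.06 on the log2 scale with a standard error of 0.48 (limma, adjusted p = 0.222).

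Of 34 effector and feedback genes, 31 were tested and 1 passed, against 3.72% of all genes. At an unadjusted p under 0.05 there were 9 (limma), 9 (edgeR) and 6 (DESeq2). These were 29.0% of the list by limma and 19.4% by DESeq2, against 17.7% and 11.0% of all genes. The libraries did not overlap for 14 of the 31 (45.2%) with S100A4-/- higher and for 4 (12.9%) with S100A4-/- lower, against 23.7% and 23.2% of all genes. The gene that passed was *Sgk1* (chromosome 10, 21882184 to 21999903), a kinase induced by serum, steroid hormones and osmotic stress. It had 914 and 819 in S100A4-/- and 304 and 296 in WT. Its S100A4-/- pools were well apart from the WT pools. The log2 fold change of *Sgk1* was 1.53 with a standard error of 0.10 and an adjusted p of 2.54e-15 by limma, and it passed under all 15 alternatives. With no fold threshold, 3 of the 31 were higher and 1 lower, against 5.62% and 1.33% of all genes.

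*Ccn2*, a matricellular protein and a target of YAP and SRF, had 1649 and 1557 in S100A4-/- and 1241 and 1233 in WT. It was higher by 0.37 on the log2 scale (limma, adjusted p = 1.07e-04), a call that held in 13 of 15 alternatives and not without the first S100A4-/- pool. *Trib1*, a pseudokinase, had 912 and 946 against 751 and 815, with a log2 fold change of 0.25 at an adjusted p of 0.0499 by limma that held under only 5 of 15 alternatives. *Gadd45b*, a stress sensor upstream of p38 and JNK, was lower, with 2303 and 2296 against 2811 and 2945. Its log2 fold change was -0.32 (limma, adjusted p = 7.47e-05) and passed that threshold in 14 of 15 alternatives. *Ppp1r15a* and *Gadd45a*, the most abundant of the list, had log2 fold changes of 0.12 and 0.03 and did not pass. The median over the 31 genes was 0.12.

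Among 18 bZIP factors that can pair with AP-1 subunits or resemble them, 17 were tested and 0 passed by any of the 3 tools, with 2 (11.8%) at an unadjusted p under 0.05 by each tool. Those were *Atf4* and *Atf5*, effectors of the integrated stress response, which were higher by less than 2-fold. *Atf4* had 5694 and 5558 in S100A4-/- and 4909 and 4712 in WT, a log2 fold change of 0.23 (limma, adjusted p = 1.44e-03). *Atf5* had 3400 and 3530 against 2821 and 2970, a log2 fold change of 0.26 (limma, adjusted p = 1.01e-03). The *Atf4* call held in 12 of 15 alternatives and was lost without the first S100A4-/- pool, without the second WT pool and without the trend. The *Atf5* call held in 11 of 15 and was lost without either S100A4-/- pool, without the first WT pool and without the trend. *Maf*, which drives crystallin transcription in lens fibers, and *Nfe2l1* were the most abundant, with log2 fold changes of -0.05 and 0.003. The largest fitted change, 1.12 for *Batf*, rested on values from 0 to 11.1 and was not distinguishable from no change (standard error 1.25).

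Of 23 kinases and factors that act upstream of immediate early genes, 22 were tested and 0 passed by the 3 tools, with 2 (limma), 2 (edgeR) and 1 (DESeq2) at an unadjusted p under 0.05. By limma this was 9.09% of the list, below the 17.7% of all genes. *Mapk14*, the p38 alpha kinase, was lower by less than 2-fold, with 4031 and 4211 in S100A4-/- and 5018 and 4951 in WT. Its log2 fold change was -0.27 (limma, adjusted p = 1.46e-04), and it held in 14 of 15 alternatives. *Map2k2* and *Mapk3*, kinases of the ERK cascade and the most abundant of the list, had 0.01 and 0.04. *Mapk13*, a further p38 kinase, had the largest fitted change of 0.98 on few reads (limma, adjusted p = 0.377).

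Heat shock genes, which mark protein damage and not the immediate early response, were tested in full, and 0 of 15 passed by the 3 tools, with 4 (limma), 4 (edgeR) and 2 (DESeq2) at an unadjusted p under 0.05. By limma this was 26.7% of the list against 17.7% of all genes, and by DESeq2 13.3% against 11.0%. Their median log2 fold change was -0.04. *Hsp90ab1* and *Hspb1* were the most abundant. *Hspb1*, a small heat shock protein of the alpha-crystallin family, had 23034 and 27053 in S100A4-/- and 28312 and 27792 in WT. Its log2 fold change of -0.17 (limma, adjusted p = 0.0254) held at that threshold in 7 of 15 alternatives. It was -0.05 without the first and -0.28 without the second S100A4-/- pool. The call was lost with edgeR, with DESeq2, without the first S100A4-/- pool and without either WT pool, among other settings. *Hspa1a*, a stress-inducible cytosolic chaperone gene, had 27.4 and 36.5 against 14.6 and 16.4. Its log2 fold change was 0.98 (limma, adjusted p = 0.199). *Hspa1b*, its near-identical neighbour, had 24.8 and 34.5 against 23.0 and 32.8 and a log2 fold change of 0.09, and as reads with a single locus were counted, the reads that fit both genes are missing from both values.

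Markers of other cell types of the eye moved between the genotypes, and their part in the values of the immediate early genes was not tested. All 6 rod markers passed, with a median log2 fold change of 2.10 and summed values of 5399 and 5306 in S100A4-/- and of 1180 and 1237 in WT, of which most was *Gnat1*, rod transducin. The others were *Pdc*, *Nrl*, *Rcvrn*, *Gngt1* and *Nr2e3*, with log2 fold changes from 1.46 to 2.45, and *Pdc* alone of the 6 lost its call in 1 of 15 alternatives, without the trend. Of 4 markers of Müller glia 3 passed, with summed values of 6710 and 6560 against 2603 and 2823, led by *Glul*, glutamine synthetase. *Slc1a3* and *Rlbp1* passed with log2 fold changes of 1.515 and 1.404, while *Aqp4*, a water channel, had 753 and 698 against 659 and 702, a log2 fold change of 0.09. All 4 pigment cell markers tested passed, of 5 listed, with sums of 1142 and 1168 against 170 and 249. *Dct*, an enzyme of melanin synthesis and the most abundant of these in S100A4-/-, had 581 and 582 against 31.3 and 44.9. *Pmel*, *Mlana* and *Tyrp1* had log2 fold changes of 2.43, 3.36 and 1.27. The call of *Mlana* was lost without either S100A4-/- pool. That of *Tyrp1* held in 12 of 15 alternatives and was lost without the first S100A4-/- pool and without the trend. Without the first WT pool the log2 fold change of *Tyrp1* was 0.92, under the 2-fold threshold. None of these tested markers was listed at 0 in any library.

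Of 8 macrophage and microglia markers 6 were tested and 4 passed, with sums of 292 and 235 in S100A4-/- and of 101 and 83.2 in WT, and with *Csf1r* as the most abundant. Those that passed were *Csf1r*, *C1qa*, *C1qb* and *C1qc*, and each of these 4 calls was lost without either S100A4-/- pool. DESeq2 called 1 of these 6. Of 7 endothelial markers 2 passed, *Flt1* and *Kdr*, with sums of 448 and 454 against 170 and 209, and *Flt1* was the most abundant. The call of *Flt1* held in 15 of 15 alternatives, and that of *Kdr* was lost without the first S100A4-/- pool. The median log2 fold change of the 7 was 0.78, and 6 of them were fitted higher. Those that did not pass had log2 fold changes of 2.11 for *Tie1*, 0.78 for *Cldn5*, 0.66 for *Cdh5*, 0.15 for *Pecam1* and -0.24 for *Tek*. *Tie1* had 25.7 and 17.2 in S100A4-/- and 11.5 and 1.09 in WT. *Cldn5* had 23.1 and 32.4 against 10.4 and 23.0, and *Cdh5* 14.6 and 35.5 against 9.40 and 20.8. For *Tie1*, *Cldn5* and *Cdh5* the pools of 1 genotype lay further apart than the genotypes, so their changes depend on single pools. Fibroblast markers had 0 of 4 past the threshold by the 3 tools, with 1 at an unadjusted p under 0.05 by limma, and sums of 1156 and 1176 against 900.1 and 931, nearly all of it *Col1a2*, followed by *Col1a1*. *Col1a2* was higher by 0.34 on the log2 scale (limma, adjusted p = 0.00161), and with no fold threshold each of the 3 tools called it. That call held in 12 of 15 alternatives and was lost without the trend and without either S100A4-/- pool. Over the alternatives its log2 fold change ran from 0.31 to 0.37. Of the smooth muscle markers *Myh11* passed and *Acta2* did not (1 of 2), with sums of 16639.8 and 18413 against 16665 and 17121. The *Myh11* call was lost without either S100A4-/- pool. Red cell markers had 0 of 3 past the threshold by the 3 tools, 1 of them at an unadjusted p under 0.05 by limma, with sums of 99.3 and 62.8 against 47.0 and 30.7, led by *Hba-a1* and *Hba-a2*. Lens fiber markers (8 tested) and lens epithelium markers (4 tested) had none past the threshold by any of the 3 tools, with medians of -0.06 and -0.10. At an unadjusted p under 0.05 by limma there were 1 and 3, or 12.5% and 75% of the lists, against 17.7% of all genes. The most abundant of these markers, *Cryaa* and *Crygs* in fibers and *Foxe3* and *Gja1* in epithelium, had log2 fold changes of -0.07, -0.11, -0.06 and 0.15. *Pdgfra* and *Cdh1*, the other epithelium markers, were lower, at -0.14 and -0.16, and with *Gja1* made up the 3 at that p. Without the first S100A4-/- pool *Cryaa* turned to 0.01 and *Foxe3* was at -0.01. With no fold threshold limma called none of the lens markers, while edgeR called *Crygs* and *Mip* lower and DESeq2 called *Mip* lower, at a log2 fold change of -0.12 for *Mip* by limma.

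**Figure D4:**
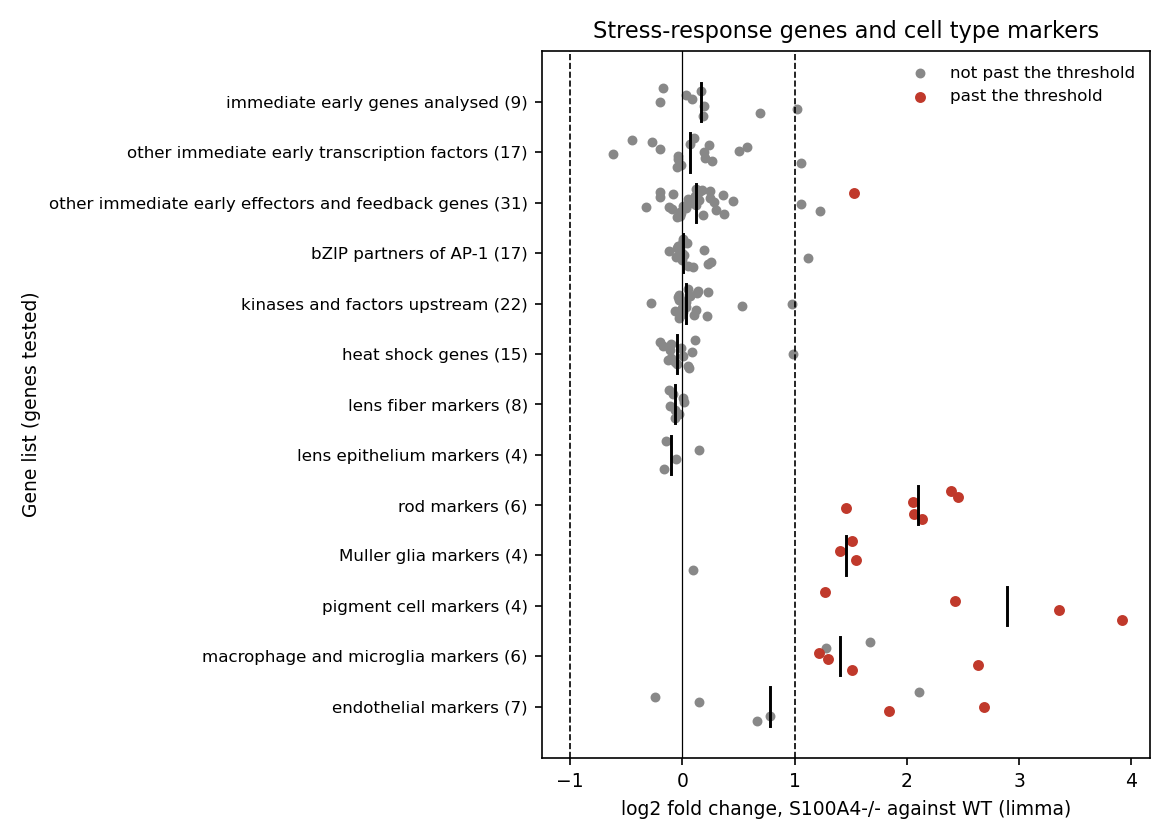
Log2 fold change, S100A4-/- against WT, of each gene tested in the lists of stress-response genes and cell type markers, with the number of genes in parentheses, red where a gene was past the threshold by limma, a bar at the median of each list and dashed lines at 2-fold. The medians of the 9 immediate early genes and the other stress-response lists lay between -0.04 and 0.17, with Sgk1 the single red point among them, while the rod, Müller glia, pigment cell and macrophage markers lay mostly above 1.

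The genes whose profile over the 4 libraries lay nearest to the mean profile of the 9 immediate early genes were found by Euclidean distance of centred log2 values among 1508 candidates, whose mean value reached 50 and whose log2 range over the libraries reached 0.5. The mean profile itself was shallow, at 0.17 and 0.06 in S100A4-/- and -0.14 and -0.08 in WT. Its range of 0.31 was below the range that candidates had to reach, so genes as shallow as this profile were left out and those named were steeper. The nearest were *4932435O22Rik* (distance 0.15), *Tmed8* (0.16), *Lamb2* (0.17), *Col20a1* (0.17) and *Hinfp* (0.17). *Lamb2*, a laminin chain of basement membranes, had 1102 and 1001 in S100A4-/- and 767 and 896 in WT. With 4 libraries such a likeness is a description only. It is a likeness to the mean and not to each of the 9 genes. *Fos* varied most and so weighed most in that mean, with 50.5 and 26.4 in S100A4-/- and 11.5 and 26.3 in WT. *Jun* and *Klf6* were fitted lower in S100A4-/-.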

How the data were processed

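Per the labels and the study's methods, lenses were kept frozen in an RNA-stabilizing reagent before extraction, and stranded mRNA libraries from pooled lenses were sequenced in 1 lane with single-end reads of 50 bases. Before deposition, the authors used Trim Galore for trimming, STAR for mapping to GRCm38v73 (mm10) and HTSeq for counting reads with a single locus; genes needed 10 reads in some library, and DESeq2 size factors scaled the counts; tool versions are not given in the sources used here. The signal values deposited are these quotients, not divided by length. In each library 100% of them were whole multiples (tolerance 0.05) of a smallest step, the value of a single read, so the counts could be recovered. No column was without a sample (0 columns).

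Identifiers were named from GENCODE M21 (14782 of 14924), which also gave coordinates and exonic lengths. Limma (lmFit, eBayes with trend) was run on log2(value + 1), two-sided, for 14780 genes that reached a value of 10 in some library (144 left out), with Benjamini-Hochberg adjustment over all of them. This scale understates the change of low genes. Count tests (edgeR's quasi-likelihood test and DESeq2) on the recovered reads, other pseudocounts, filters and scalings, no trend, a replicate block and each library left out were alternatives. The members and lists were chosen with earlier results of these data known. Named were all members, *S100a4*, and in each list the genes past the threshold (at most 6 by p), the 2 with the highest mean, in pathway lists the largest fold change, and the 5 nearest profiles. Genes of those lists that passed only without the fold threshold, and *Bfsp2*, *Mip*, *Hspa1b*, *Pdgfra*, *Cdh1* and the endothelial markers that did not pass other than *Tek*, were named after their values were seen. The searches for TGACGT and TGACNTCA were added after the windows were read. The limma, edgeR and DESeq2 genotype comparisons were checked on simulated counts, and the pool ratios, the block and the omissions were not. Versions were matplotlib 3.10.9, scipy 1.17.1, pandas 2.3.3 and numpy 2.4.6 under Python 3.11.15, and DESeq2 1.42.0, edgeR 4.0.16 and limma 3.58.1 under R 4.3.3.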

Additional observations from a re-analysis of the deposited data

How the results depend on the processing

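Few reads limit *Fos*, *Atf3*, *Junb* and *Egr1*, whose 95% intervals each spanned more than 1 on the log2 scale, and 2 pools per genotype limit every test. Leaving out a library leaves 1 in its group, which is then assumed to vary like the other group. No immediate early gene passed under any alternative apart from *Fos* without the second WT pool (count 0 to 1 over the omissions, with and without the fold threshold), where its log2 fold change was 1.59. The median log2 fold change of the 9 genes was 0.0047 under quantile normalization, and 0.045 (without the second WT pool; 0.099 without the first) to 0.18 with libraries left out. *Egr1*, *Jun*, *Klf6* and *Ier2* kept their direction in all 15 alternatives, but *Ier2* fell to 0.0047 under quantile normalization and ran from 0.045 (without the second WT pool) to 0.33 (without the first), with 0.12 without the first S100A4-/- pool, and *Jun* ran from -0.27 to -0.12 (without the first S100A4-/- pool). *Junb* reversed to -0.13 and *Atf3* to -0.083 under quantile normalization. With libraries left out, *Junb* ran from -0.034 (without the second S100A4-/- pool) to 0.21, passing -5.6e-05 without the second WT pool, *Jund* from -0.019 (without the second WT pool) to 0.086, and *Klf4* from -0.11 (without the first S100A4-/- pool) to 0.44; the cause was not tested. *Fos* and *Atf3* fell below the filter on a mean value of at least 50. Genes past the threshold, 539 higher and 11 lower, became 281 and 6 with that filter, under which fewer genes are tested, and 174 and 7 without the trend. Those lower were 23 under quantile normalization and 6 with DESeq2. With libraries left out they were 168 (without the first S100A4-/- pool) to 546 higher and 4 to 13 lower, and 210 were higher without the second S100A4-/- pool. With no fold threshold, 1028 genes became 187 without the trend, 661 with DESeq2 and 249 to 898 with libraries left out. The replicate numbers of the labels did not pair the libraries (correlation 0.01 between deviations of same-numbered libraries), and a replicate block gave 576 genes higher and 15 lower, 1330 with no fold threshold, and 0 immediate early genes.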
